A study of Caenorhabditis elegans with 12 samples.

Results

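mir-243 is a Caenorhabditis elegans microRNA gene whose hairpin gives a pair of mature arms, listed as cel-miR-243-3p and cel-miR-243-5p. They are 2 of the 471 miRNA features in a deposited count table of 12 small RNA libraries, and both are among the 250 features that passed the filter on low counts. The arms were chosen by their own counts, because they were higher in the mbl-1(tm1563) and ME line columns than in the wild-type columns. Their differences from wild type in those lines are therefore given as a description, with no test. Every other comparison uses tm1563, ME or wild-type libraries that entered that choice on at least 1 side, so none is independent of it. The libraries were made from whole L4 larvae of 4 genotypes, with 3 biological replicates each, to compare miRNA levels when mbl-1 is deleted or restricted to a single kind of protein isoform. The 4 were the deletion allele mbl-1(tm1563), edited lines coded ME and SH, and wild-type N2. Worms of all 4 genotypes were fed OP50 bacteria at 20 °C and synchronized by bleaching. The ME and SH lines are the edited strains mbl-1(syb4318) and mbl-1(syb4345). One expresses a short and the other a long MBL-1 isoform, and no label ties the codes to a strain or to an isoform length. Each genotype is a single strain, and RNA came from all tissues together. A change in the number of cells that make a miRNA and a change in miRNA per cell therefore cannot be told apart.

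MBL-1 is the worm member of the Muscleblind family, RNA-binding proteins known for regulating alternative splicing in muscle and neurons. In vertebrates a Muscleblind protein also binds the hairpin loop of a miRNA precursor, pre-mir-1, and promotes its processing. Most worm miRNAs are loaded into the Argonautes ALG-1 and ALG-2, pair with a seed to partly complementary sites and lower the output of their targets. miR-243-3p is known as an exception: it is found mainly with RDE-1, the Argonaute of the RNA interference pathway, pairs almost fully with the mRNA of Y47H10A.5, and starts the production of secondary small interfering RNAs on that mRNA. The opposite arm, miR-243-5p, is the strand of the duplex that is mostly discarded. Argonaute binding, Y47H10A.5 and secondary small interfering RNAs were not measured in these libraries.

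In the genome build WBcel235, with the Ensembl annotation, the mir-243 precursor lies on the forward strand of chromosome IV from position 4450779 to 4450876 and is 98 nt long. The 5p arm spans 4450798 to 4450816 and the 3p arm 4450839 to 4450861, with 22 nt between them on the loop side. The annotated 5p arm is 19 nt long and the 3p arm 23 nt. Of 458 annotated mature arms, with a median length of 22 nt, 8 are 19 nt or shorter, so the 5p arm is among the shortest in the annotation, while 138 arms share the 3p arm's length. Libraries held inserts of 18 to 40 nt, so the annotated 5p arm is 1 nt above the lower bound of that size selection. The precursor sits in the sense direction within intron 1 of 6 of transcript R08C7.12b.1, an intron of 1362 nt, 568 nt from the intron's start. No exon of the host gene R08C7.12, a protein-coding gene at 4449739 to 4460130, overlaps the precursor. Of the gene's 4 annotated transcripts, only R08C7.12b.1 holds the precursor in an intron. The nearest other miRNA precursor is mir-242, which is 176436 nt away on the same strand, so mir-243 is not part of a close miRNA cluster.

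The 12 libraries held between 6946205 and 12053039 counts. Levels are given on the counts-per-million (CPM) scale after TMM scaling, edgeR's correction for differences in library composition. Wild-type library 1 stood apart, with 326 features detected, against 365 to 400 in the other 11 libraries, and a TMM factor of 0.788, against 0.913 to 1.18. Values that leave out both this library and ME library 1 are given beside the comparisons they enter. ME library 1 was included in that setting on earlier results alone: its 376 features and TMM factor of 0.999 lie within the range of the other libraries. In all 12 libraries let-7-5p, a developmental timing miRNA of late larvae, was present at 5576 to 7347 CPM, and lin-4-5p, a timing miRNA that acts from early larval stages on, at 902 to 1998 CPM. The targeted gene mbl-1 cannot be checked in a table of miRNAs.

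Across the 12 libraries miR-243-3p was a mid-abundance miRNA and miR-243-5p its minor partner. miR-243-3p ranked between 49 and 68 among all features of a library, and miR-243-5p between 142 and 183. The 3p arm rested on 1760 to 5074 counts per library and the 5p arm on 58 to 126. The counting error this allows was 1.40 to 2.38% of the mean for a genotype's 3p libraries, far under the 9.33 to 14.1% spread between replicates. For the 5p arm the counting error was 8.91 to 13.1% and the spread between replicates 17.3 to 30.3%, so small differences in that arm were harder to resolve.

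cel-miR-243-3p, the arm that RDE-1 is known to carry, had its lowest mean in wild type, the next in the SH line, and higher means in the tm1563 and ME genotypes. The tm1563 libraries held 516, 467 and 399.8 CPM. The ME libraries held 548, 455 and 503 CPM. All 6 of these values lie above every SH and wild-type value, with the lowest tm1563 library still higher than the highest SH library. The arm was chosen for high values in tm1563 and ME, which favours this separation. Of the 250 features, 20.0% were higher with no overlap in tm1563 over wild type and 18.4% in ME over wild type. Over SH the shares were 16.8% for tm1563 and 21.6% for ME. The share of features with all of these separations at once was not counted. The SH libraries held 245, 325 and 285 CPM, and the wild-type libraries 263, 206 and 239.5 CPM. The SH and wild-type libraries overlapped, since SH library 1 lay below wild-type library 1. Group means were 461 ± 58.5 CPM in tm1563, 502 ± 46.8 CPM in ME, 285 ± 40.1 CPM in SH and 236 ± 28.6 CPM in wild type (SD, n = 3 each).

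**Figure D1:**
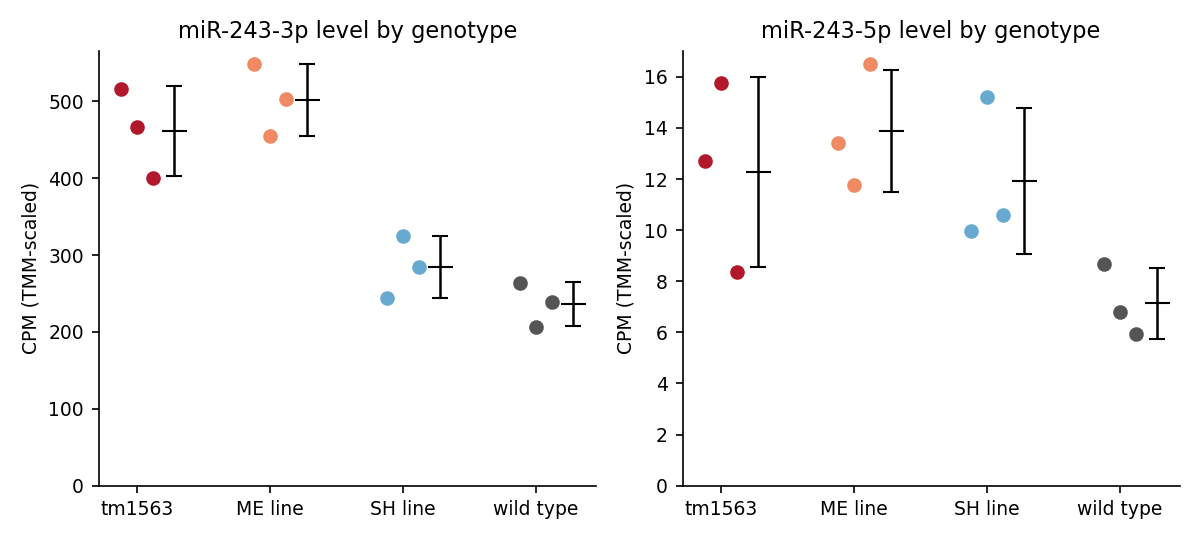
Level of miR-243-3p (left) and miR-243-5p (right) in each library, in CPM after TMM scaling on a linear axis that starts at 0, with points for libraries and bars for the mean and SD of 3 libraries. For the 3p arm the tm1563 and ME libraries, at 399.8 to 548 CPM, sit above all SH and wild-type libraries. The arms were chosen for high values in tm1563 and ME, which favours this separation. For the 5p arm the wild-type libraries, at 5.93 to 8.67 CPM, are low, but tm1563 library 3 lies below wild-type library 1. The 3 mutant genotypes overlap in that arm.

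In the comparisons that chose the members, the log2 fold change of miR-243-3p was 0.96 (SE 0.17) in tm1563 over wild type, or 1.95-fold, and 1.09 (SE 0.17) in ME over wild type, or 2.12-fold. These comparisons share their wild-type libraries. Libraries of the group pair did not overlap in either one, which held in the same direction for 20.0% of the 250 features in tm1563 over wild type and for 18.4% in ME over wild type; both shares include the arms' own selection. Without wild-type library 1 and ME library 1 the log2 fold changes were 1.05 and 1.09. The authors' deposited tables, computed separately for each mutant and limited to features past the authors' threshold, list miR-243-3p at a log2 fold change of 0.87 among 51 features for tm1563. The authors' deposited table for ME gives it 0.98 among 41 features. The authors' deposited table for SH lists 12 features and neither arm of mir-243.

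Against the SH line miR-243-3p was higher in ME and, with a less stable call, in tm1563. The SH libraries were not named in the choice, which was made with earlier results of these data known. The tm1563 and ME libraries were used for being high, which favours higher values over SH and a low p. Neither test is therefore independent of the choice, and the p-values are not independent support. In ME over SH the log2 fold change was 0.82 (SE 0.17, 95% interval 0.45 to 1.18), or 1.76-fold, with an edgeR quasi-likelihood adjusted p of 0.00453. All 3 ME libraries lay above all 3 SH libraries. Of the 250 features 10.8% were called higher in this comparison, and 21.6% were higher with no overlap. On the TMM scale many miRNAs were thus higher in ME than in SH, and the size of this shift depends on the scaling. The call was lost without SH library 1, the lowest SH library, when the log2 fold change was 0.62 and the edgeR adjusted p 0.0806. Without wild-type library 1 and ME library 1 the edgeR adjusted p was 0.0142.

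In tm1563 over SH the log2 fold change of miR-243-3p was 0.70 (SE 0.17, 95% interval 0.33 to 1.06), or 1.62-fold, with an edgeR quasi-likelihood adjusted p of 0.0467. The tm1563 libraries were used for being high, so this p is not independent of the choice either. Higher calls were rare in this comparison, at 1.60% of features. Another 16.8% figure counts features higher in tm1563 with no overlap between libraries, as miR-243-3p was. This call did not survive the loss of any 1 of the 6 libraries: the log2 fold change then lay between 0.46, without SH library 1, and 0.81, without SH library 2, and the edgeR adjusted p between 0.0542, without SH library 2, and 0.305, without SH library 1. Without wild-type library 1 and ME library 1, which enter only through the shared spread and scaling, the edgeR adjusted p was 0.0177.

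Between tm1563 and ME, miR-243-3p did not pass the test. The log2 fold change of tm1563 over ME was -0.12 (SE 0.17, 95% interval -0.48 to 0.24), with an edgeR adjusted p of 0.716, and the libraries overlapped. The interval reaches from 0.715-fold to 1.18-fold. In this comparison 9.60% of features were called in either direction, and 34.0% had libraries that did not overlap. With 3 libraries each, differences within that interval are not excluded. The arm was chosen for being high in both genotypes, which favours like values here.

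The SH line and wild type were also not separated for miR-243-3p. The log2 fold change of SH over wild type was 0.27 (SE 0.17, 95% interval -0.09 to 0.63), or 1.21-fold, with an edgeR adjusted p of 0.508. Called features made up 2.00% of the 250 in this comparison. Scaled by library totals alone, with no TMM factor, the SH libraries held 261, 305 and 307 CPM and the wild-type libraries 207, 220.3 and 245 CPM, and these did not overlap, as for 9.20% of features in that direction. The crossing on the TMM scale came from wild-type library 1. Without that library and ME library 1 the log2 fold change was 0.34, with an edgeR adjusted p of 0.418.

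cel-miR-243-5p, the strand that is mostly discarded, had its lowest mean in wild type and overlapping levels in the 3 mutant genotypes. The tm1563 libraries held 12.7, 15.8 and 8.35 CPM. The ME libraries held 13.4, 11.8 and 16.5 CPM, and the SH libraries 9.96, 15.2 and 10.6 CPM. The wild-type libraries held 8.67, 6.79 and 5.93 CPM. All ME and SH libraries lay above all wild-type libraries, and the lone crossing was tm1563 library 3, which lay below wild-type library 1. Group means were 12.3 ± 3.72 CPM in tm1563, 13.9 ± 2.40 CPM in ME, 11.9 ± 2.86 CPM in SH and 7.13 ± 1.40 CPM in wild type (SD, n = 3 each).

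For miR-243-5p the log2 fold change over wild type was 0.79 (SE 0.28) in tm1563 and 0.97 (SE 0.28) in ME, comparisons that chose the arm, and 0.75 in SH. The SH libraries were not named in the choice, which was made with earlier results of these data known. The wild-type libraries they are set against entered the choice. The 3 values are 1.73-fold, 1.96-fold and 1.68-fold over the same 3 wild-type libraries. In SH over wild type the SE was 0.28, the 95% interval 0.16 to 1.34 and the edgeR quasi-likelihood adjusted p 0.217, so the difference did not pass, although the SH and wild-type libraries did not overlap. A share of 7.20% of features was higher in SH than in wild type with no overlap, and 9.20% by library totals alone. Without wild-type library 1 and ME library 1 the log2 fold change was 0.89 and the edgeR adjusted p 0.140. With DESeq2 in place of edgeR the adjusted p was 0.0841, the lowest of all alternatives tried. The authors' deposited table for ME gives miR-243-5p a log2 fold change of 0.83, and the authors' deposited table for tm1563 does not list it.

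Among the mutant genotypes no difference in miR-243-5p passed the test. In tm1563 over SH the log2 fold change was 0.04 (SE 0.27, 95% interval -0.53 to 0.62), with an edgeR adjusted p of 0.969. In ME over SH it was 0.22 (SE 0.27, 95% interval -0.36 to 0.80), with an edgeR adjusted p of 0.65. In tm1563 over ME it was -0.18 (SE 0.27, 95% interval -0.75 to 0.40), with an edgeR adjusted p of 0.741. Libraries overlapped in each of these 3 comparisons. The sign of the tm1563 over SH value turned with RLE scaling, and its interval reaches from 0.692-fold to 1.54-fold.

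**Figure D2:**
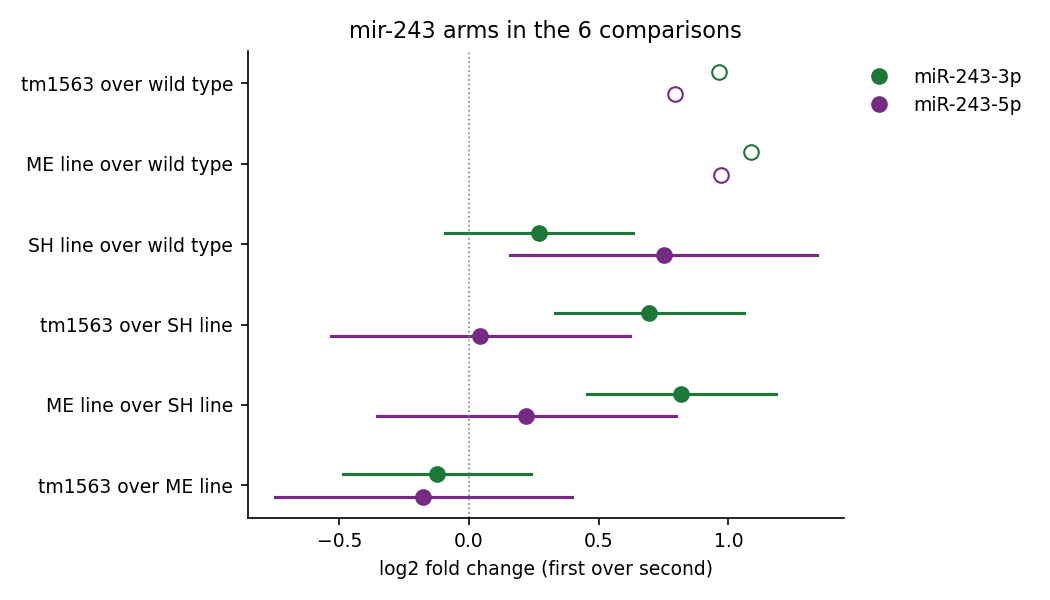
Log2 fold change of miR-243-3p and miR-243-5p in each of the 6 comparisons between genotypes, the group named first over the other, from 1 edgeR fit on 12 libraries. Filled points carry a 95% interval, and hollow points are the comparisons that chose the arms and carry none. Against SH, the 3p values (0.70 in tm1563 and 0.82 in ME) have intervals above 0, while the 5p values (0.04 and 0.22) have intervals that cover 0. The tm1563 and ME libraries were used in the choice for being high, which favours values above 0 against SH. These intervals are therefore not independent of the choice.

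In the SH line the 3p mean lay nearer to that of wild type, and the 5p mean nearer to those of the other mutants. The ratio of the arms within a library needs no scaling between libraries, and does not show which arm moved. The annotated 5p arm of 19 nt lies close to the 18 nt lower bound of the size selection. An effect of that bound on the ratio was not tested. For every 100 miR-243-3p counts there were 2.46, 3.38 and 2.09 miR-243-5p counts in the tm1563 libraries. There were 2.45, 2.59 and 3.28 in the ME libraries. The SH libraries had the highest ratios, at 4.07, 4.68 and 3.72, and lay above all 9 libraries of the other genotypes. How often the arm ratio of other precursors separates a genotype in this way was not counted. The wild-type libraries had 3.30, 3.29 and 2.48, and overlapped those of tm1563 and ME. Means were 2.64 ± 0.663 in tm1563, 2.77 ± 0.447 in ME, 4.16 ± 0.485 in SH and 3.02 ± 0.472 in wild type (SD, n = 3 each).

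Tested as a difference in mean log2 ratio, SH stood 0.46 above wild type, or 1.38-fold, with an exact two-sided permutation p of 0.1. tm1563 stood at -0.68 against SH, or 0.625-fold, and ME at -0.59 against SH, or 0.663-fold, each again with an exact permutation p of 0.1. With 3 libraries against 3 the smallest p possible is 0.1, so none of these could pass 0.05, and each is 0.2 after Benjamini-Hochberg adjustment over 6 comparisons. In tm1563 against ME the difference was -0.09, with an exact permutation p of 0.8. These comparisons all use tm1563, ME or wild-type libraries that entered the choice of the arms. None of their p-values is independent of that choice. The values of tm1563 and ME against wild type were -0.21 and -0.13, given as a description because both arms were chosen on those comparisons.

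**Figure D3:**
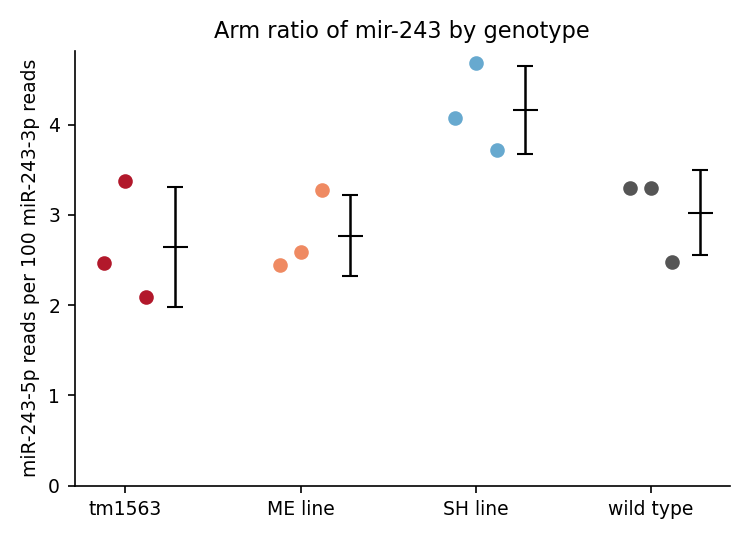
Number of miR-243-5p counts per 100 miR-243-3p counts in each library, on a linear axis that starts at 0, with points for libraries and bars for the mean and SD of 3 libraries. The SH libraries, at 3.72 to 4.68, lie above the 2.09 to 3.38 of the tm1563, ME and wild-type libraries. The share of other precursors with such a separation was not counted.

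Whether such a divergence of arms is unusual was described over the 80 precursors with both arms kept. The 3p arm was the more abundant one in 48 of them, and mir-243 ranked 41 by the size of its mean arm ratio, in the middle of the set. In SH over wild type the log2 fold change of miR-243-5p exceeded that of miR-243-3p by 0.48, above the upper quartile of 0.27 and in place 12 of 80 from the top. In tm1563 over SH the difference of 5p minus 3p was -0.65, below the lower quartile of -0.27 and in place 77 of 80. In ME over SH it was -0.60, below the lower quartile of -0.30 and in place 71 of 80. All 3 values involve the same SH libraries. In tm1563 over wild type and ME over wild type the arms differed by -0.17 and -0.12, within the quartiles of all precursors. Divergence of this size was not particular to mir-243: 33 precursors differed by more in SH over wild type, 15 in tm1563 over SH and 37 in ME over SH.

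**Figure D4:**
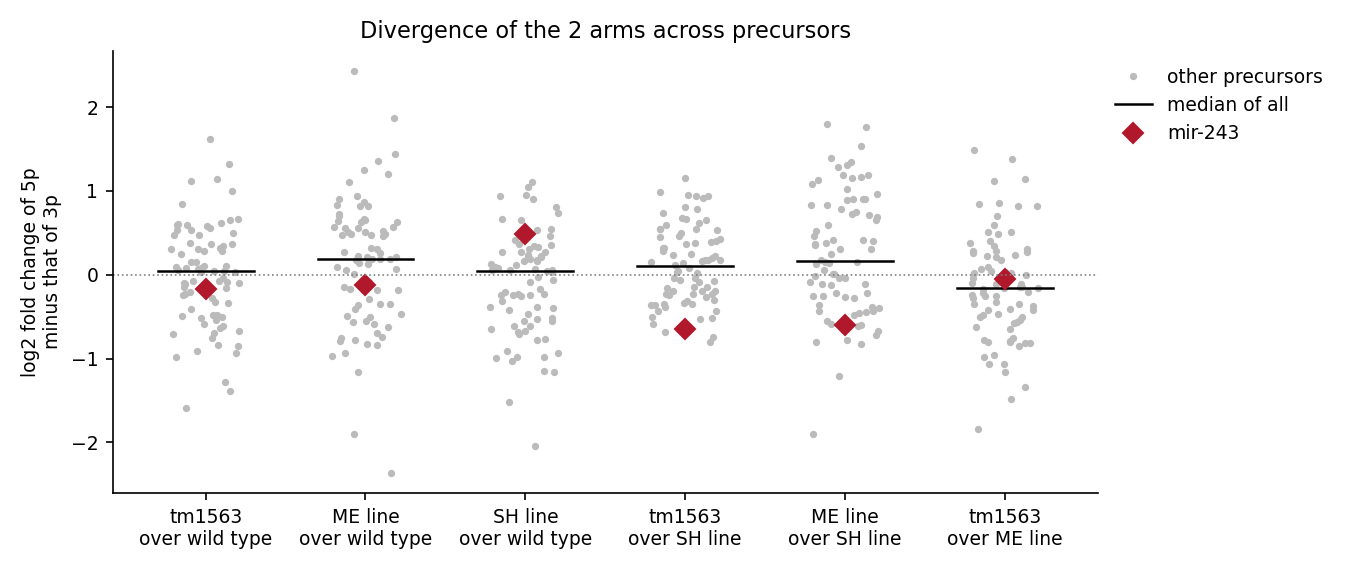
Log2 fold change of the 5p arm minus that of the 3p arm for 80 precursors in each of the 6 comparisons, the group named first over the other, with mir-243 as a diamond and the median of all precursors as a line. mir-243 is high in SH over wild type (0.48) and low in tm1563 over SH (-0.65) and ME over SH (-0.60), with other precursors beyond it in each.

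The features whose pattern over the 12 libraries was closest to each arm were found by the root mean square difference of log2 CPM, each centred on its own mean. For miR-243-3p the closest were miR-1022-5p at 0.23, miR-58a-5p at 0.25 and miR-230-3p at 0.26, against a median of 0.57 over 248 other features. miR-1022-5p averaged 204 CPM in tm1563, 238 CPM in ME, 157 CPM in SH and 143 CPM in wild type. miR-58a-5p, the minor arm of an abundant bantam-family miRNA, averaged 97.9 CPM in tm1563, 129 CPM in ME, 73.9 CPM in SH and 71.1 CPM in wild type. miR-230-3p averaged 135 CPM in tm1563, 129.8 CPM in ME, 79.2 CPM in SH and 74.5 CPM in wild type. They were picked for this likeness, so their levels are a description only.

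For miR-243-5p the closest were miR-233-5p at 0.22, novel_89, a predicted miRNA without a miRBase name, at 0.24, and miR-47-3p at 0.24, against a median of 0.55. miR-47-3p, a member of an abundant family, averaged 12723 CPM in tm1563, 11864 CPM in ME, 12949 CPM in SH and 7174 CPM in wild type. novel_89 averaged 12.2 CPM in tm1563, 17.3 CPM in ME, 13.3 CPM in SH and 9.65 CPM in wild type. miR-233-5p was near the bottom of the kept features, at 1.68 CPM in tm1563, 2.08 CPM in ME, 1.36 CPM in SH and 0.838 CPM in wild type. These too were picked for their likeness. The arms of mir-243 were 0.33 apart from each other, which made 5p only the number 12 in closeness to 3p, and 3p the number 14 in closeness to 5p, of 249 features.

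**Figure D5:**
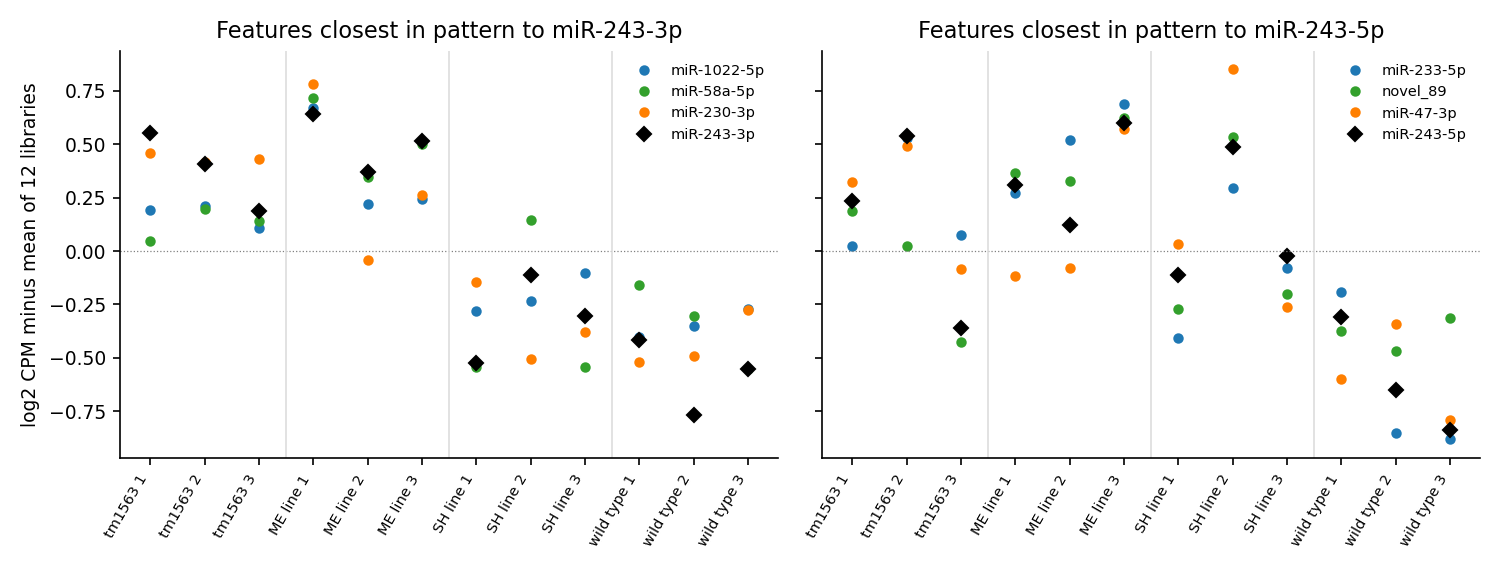
Log2 CPM of miR-243-3p (left) and miR-243-5p (right) in each of the 12 libraries, each minus its mean over the libraries, as diamonds, with the 3 closest features as circles. The features near the 3p arm are low in most SH and wild-type libraries, and those near the 5p arm are low in wild type and spread within SH, where library 2 is high.

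The nearest miRNA gene on the chromosome is mir-242. miR-242 averaged 62.4 ± 6.90 CPM in tm1563, 41.7 ± 5.93 CPM in ME, 42.2 ± 14.6 CPM in SH and 35.8 ± 5.67 CPM in wild type (SD, n = 3 each). It rose in tm1563 over wild type by a log2 fold change of 0.80 (SE 0.24), with an edgeR adjusted p of 0.0441. This call was lost without any 1 of the 6 libraries, with log2 fold changes of 0.64 to 0.89 and edgeR adjusted p between 0.0613 and 0.203, in fits added after seeing the data. In ME over wild type the log2 fold change was 0.22 (SE 0.24), with an edgeR adjusted p of 0.624. Whether miR-242 and miR-243-3p differ in their change was not tested.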

How the data were processed

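Small RNA of whole L4 worms was sequenced over 50 nt, and the authors deposited raw read counts per miRNA feature, 370 of 471 with a miRBase name. Bowtie, DESeq2 and WBcel235 are listed in the submitters' processing notes. The handling of reads that map to several places is not given in the sources used here. Per the file headers, the authors' comparison tables hold a normalized signal (mean read count), log2 fold changes and p-values. Columns were matched to genotypes by their codes: CR_MED to ME, CR_SH to SH and Mbl_1, by inference, to tm1563. With the median offset removed, the authors' log2 ratios differed from those of the matched columns by a median absolute 0.00350, 0.00163 and 0.00364. Against unmatched columns this difference was 0.139 to 0.589. In all, 0 library columns were left unmapped.

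The counts were tested with edgeR 4.0.16 in R 4.3.3: TMM scaling, filterByExpr (minimum count 10, total 15), a robust quasi-likelihood fit on 12 libraries with 1 mean per genotype and no replicate block, and Benjamini-Hochberg adjustment over 250 features at 0.05. The fit was tested on simulated data with the same dispersion for every feature, a simpler case than these data. The biological coefficient of variation was 22.7%. The floor of 3 counts equals 0.249 to 0.432 CPM. Counting errors cover counting only, since reads are not independent molecules. Arm ratios used counts plus 0.5 and exact permutation tests, and patterns used log2 CPM with a prior count of 2. The annotation gives no arm suffix, so arms were named from their place in the hairpin. Sequences and seeds of the arms were not used here. DESeq2 1.42.0, other scalings, no filter, a replicate block, fewer genotypes and libraries left out were alternatives. Named features were the arms, the nearest miRNA precursor and the 3 features closest in pattern to each arm. The members and lists were chosen with earlier results of these data known.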

Additional observations from a re-analysis of the deposited data

How the results depend on the processing

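miR-243-3p in tm1563 over SH lost its call in 10 of 13 alternatives: the log2 fold change was 0.58 with RLE size factors (edgeR adjusted p 0.0826), 0.595 with no low-count filter (0.180), 0.69 with a replicate block (0.0871), 0.58 in a fit of these genotypes alone (0.132), and 0.46 to 0.81 with single libraries left out. It was kept with library totals, DESeq2, and without wild-type library 1 and ME library 1. In ME over SH it was lost in 1 of 13, without SH library 1, with a range of 0.62 to 0.93 when single libraries were left out. The miR-243-5p value in tm1563 over SH, uncalled throughout, turned to -0.0822 with RLE size factors, -0.0656 with no filter, -0.0789 with DESeq2 and -0.0843 in a fit of these genotypes alone, and lay between -0.27 and 0.26 without single libraries. In ME over SH it lay between -0.0461, without ME library 3, and 0.44. miR-242 in tm1563 over wild type lost its call in 9 of 13 alternatives, among them RLE size factors at 0.73 (edgeR adjusted p 0.0515). For both arms, SH over wild type and tm1563 over ME kept direction and missed the threshold in all 13. RLE moved the median of all features in ME over SH to -0.03, against 0.13 with TMM, in tm1563 over SH to -0.03, against 0.09, and in ME over wild type to -0.04, against 0.07. Library totals moved it to 0.15, against 0.03, in tm1563 over wild type, and to 0.08, against -0.03, in SH over wild type. Calls over all features ranged from 5 to 41 in tm1563 over wild type (25 in the reported fit), 10 to 46 in ME over wild type (34), 12 to 42 in ME over SH (36) and 13 to 41 in tm1563 over ME (24). SH over wild type gave 5 calls, 10 with DESeq2, and 0 with edgeR on library totals or in a fit of these genotypes alone, where 32 and 31 features had an unadjusted p under 0.05. tm1563 over SH gave 5 calls, 13 with DESeq2, 18 without wild-type library 1 and ME library 1, and 0 with edgeR without tm1563 library 3, where 23 had an unadjusted p under 0.05. The replicate numbers did not pair the libraries: the deviations of same-numbered libraries correlated at -0.53 to 0.32, over 0.1 in 3 of 18 pairs, and at most 3 of 6 libraries in a comparison correlated best with their own number. The replicate block gave 16 calls in tm1563 over wild type and 3 in tm1563 over SH. For the arm ratio, no alternative could reach a p under 0.05. The depth of 58 to 126 counts limits miR-243-5p.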
